A study of Homo sapiens with 6 samples.

Results

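The comparison set 3 arrays labelled FAL-1 (a control and hairpins shRNA1 and shRNA2) against 3 arrays labelled BMI1 (a control and hairpins shRNA1 and shRNA2), which are all 6 arrays of the series. Every array held RNA of A2780, an established human ovarian cancer cell line. Cells of each array were infected with lentivirus, lost the virus medium at 24 h, were kept in RPMI1640 with 10% serum and were harvested 96 h after infection. The groups were a BMI1 control (1 array), BMI1 hairpins 1 and 2 (1 array each), a FAL-1 control (1 array) and FAL-1 hairpins 1 and 2 (1 array each). The labels give no hairpin sequences and do not say whether both controls carried the same hairpin or whether infected cells were selected. A difference of culture or handling between the sets cannot be told apart from a difference of target. A gene was a member when its lowest array of the higher set lay above its highest array of the lower set. That gap, in log2 units, was above 0 for 3454 of 18418 genes (18.8%). Of these genes, 2284 (12.4% of all) were higher in the FAL-1 set and 1170 (6.35%) were lower. These counts are a description, because the rule uses the values themselves.

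BMI1 is a subunit of Polycomb repressive complex 1, which marks histone H2A with ubiquitin and holds genes silent, the cell cycle inhibitor CDKN1A among its known targets in this setting. FAL-1 (FALEC) is a long non-coding RNA described as binding the BMI1 protein. Several gene programmes are known to follow the state of a culture whatever the target. SREBP factors raise sterol and fatty acid synthesis genes when membrane sterol falls, ATF4 raises amino acid transport and synthesis genes when amino acids run short, and TFEB raises lysosomal genes. Immediate early genes such as EGR1 follow serum and fresh medium, and cell cycle genes follow growth rate.

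Values are log2 intensities, so a difference of 1 is a doubling. Array medians lay between 6.94 and 7.09. Pearson correlations over all 33252 probe sets were 0.985 to 0.995 within a set and 0.973 to 0.987 between sets, so the ranges meet. The FAL-1 shRNA 2 array gave the lowest correlation of each kind. The labels do not say that the arrays came from separate cultures, so the p-values measure the spread among these arrays, which may be technical. BMI1 itself read 10.64 in the BMI1 control, 8.73 and 9.99 with BMI1 hairpins 1 and 2, and 10.84, 10.84 and 10.51 in the FAL-1 control and FAL-1 hairpins 1 and 2. The sets overlapped because the BMI1 control lay inside the FAL-1 range. FALEC is not analysed here.

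The sets were tested with limma, with knockdown as a second term and 3 residual degrees of freedom. After Benjamini-Hochberg adjustment over all genes, 16 of 18418 genes passed 0.05 (0.0869%), 2 higher in the FAL-1 set (0.0109%) and 14 lower (0.076%). At an unadjusted p under 0.05, 2469 genes passed (13.4%). Leaving out any 1 array left 0 to 3 calls, with an unadjusted p under 0.05 for all 16 genes. Their direction could not change, because the sets did not overlap in any of the 16. An exact permutation test of 3 arrays against 3 cannot go below p = 0.1. The balance of directions depended on scaling. Of the non-overlapping genes, 66.1% were higher in the FAL-1 set as deposited, 46.4% after each array was centred on its median, 49.8% after quantile normalization and 48.8% after cyclic loess. Centring gave 1481 genes higher (8.04%) and 1709 lower (9.28%), quantile normalization 1765 (9.58%) and 1780 (9.66%), and cyclic loess 1771 (9.62%) and 1855 (10.1%). Under all 4 scalings, 1163 genes stayed higher and 1054 stayed lower.

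The difference between the controls and the difference between the knockdowns share no array, so they were set side by side. FAL-1 control minus BMI1 control and mean FAL-1 hairpins minus mean BMI1 hairpins had a Pearson correlation of 0.587 and a Spearman correlation of 0.496 over 18418 genes. This is a description across genes, which are not independent and share arrays, handling and probe design. No gene passed the adjusted threshold for a difference between these contrasts in limma (smallest adjusted p = 0.9999, 2 residual degrees of freedom), and 148 (0.804%) had an unadjusted p under 0.05. With 1 control per set, the control difference itself has no test.

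**Figure D1:**
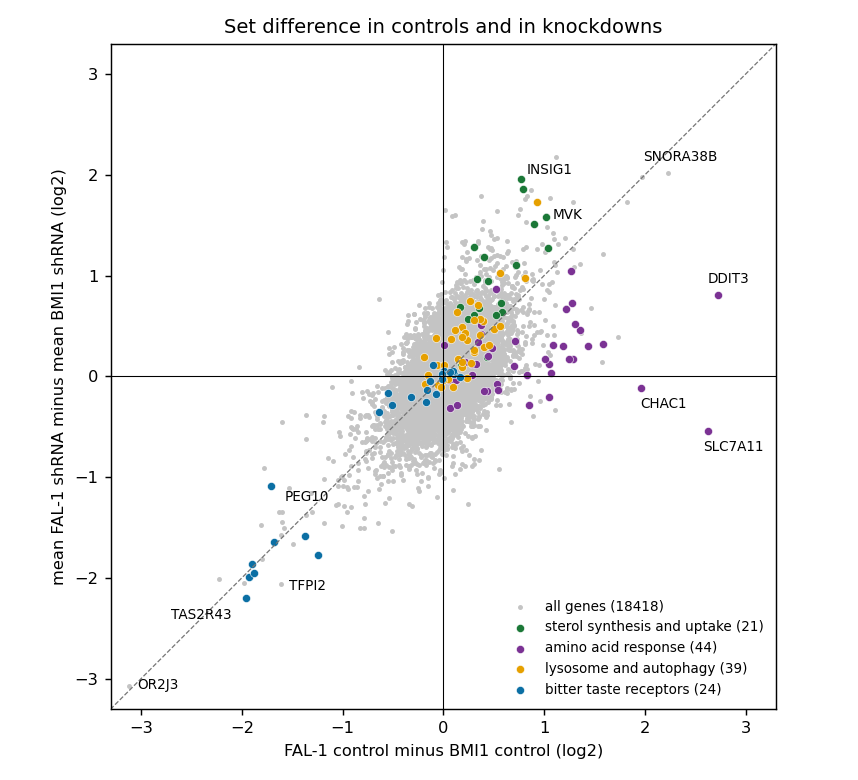
Each point is a gene, with the control difference (FAL-1 minus BMI1, log2) on the horizontal axis and the knockdown difference (log2) on the vertical axis; the dashed line marks equal differences and colours mark gene groups. All 21 sterol genes lie above 0 on both axes, while SLC7A11 (2.63 in controls, -0.54 in knockdowns) and CHAC1 (1.96 and -0.11) sit far to the right near the horizontal line.

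Among genes higher in the FAL-1 set, SNORA38B, a small nucleolar RNA of the H/ACA class that lies within NOL11, stood apart. It read 7.61, 7.54 and 7.65 in the BMI1 control, shRNA 1 and shRNA 2, and 9.85, 9.68 and 9.54 in the FAL-1 control, shRNA 1 and shRNA 2. The lowest FAL-1 array was 1.89 above the highest BMI1 array, and the fitted difference was 2.09 ± 0.09 (SE; limma adjusted p = 0.0118). NOL11, the gene around it, differed by 0.29 ± 0.10 (SE; adjusted p = 0.30). FABP3, a fatty acid binding protein, read 7.66, 6.83 and 6.81 in the BMI1 set and 8.55, 7.80 and 7.77 in the FAL-1 set in the same order. Both controls of FABP3 were above their hairpins, and the fitted difference was 0.94 ± 0.07 (SE; limma adjusted p = 0.0301). Its gap was only 0.10, with an SD of 0.44 in the FAL-1 set and 0.49 in the BMI1 set. Without the knockdown term, 15 of the 16 calls remained, and the highest limma adjusted p among the 16 was 0.295.

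Other genes with wide gaps did not pass the adjusted threshold, and 4 of them are given here, chosen after their values were seen. TMPRSS15, the protease enteropeptidase, differed by 1.98 ± 0.31 (SE; limma adjusted p = 0.13), with a gap of 1.34. PCDH18, a protocadherin, differed by 1.76 ± 0.17 (adjusted p = 0.0607), EPHA7, an ephrin receptor, by 1.33 ± 0.12 (adjusted p = 0.0569), and NEFL, the light neurofilament chain, by 1.16 ± 0.12 (adjusted p = 0.0698). Their control differences were 1.97, 1.82, 1.03 and 1.30. The choice by gap fixes the direction of these values. BTG3, C21orf91, CHODL and TMPRSS15, which are neighbours on chromosome 21, were all higher in every FAL-1 array, with a median difference of 0.72. Gaps of at least 1.5-fold were present for 29 genes in this direction (0.157%) and for 48 in the other (0.261%).

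Genes of sterol synthesis and uptake were higher in the FAL-1 set. Of 21 measured genes, 15 (71.4%) were higher in every FAL-1 array and none was lower, against 12.4% and 6.35% of all genes. None passed the adjusted limma threshold, and 17 had an unadjusted p under 0.05, against 13.4% of all genes. These shares over all genes apply to the groups below as well. The median difference was 0.68 over the list and 0.03 over all genes. It was 0.43 between the controls and 0.73 between the knockdowns, and the count was 15, 16 and 15 after median centring, quantile normalization and cyclic loess. The control value rests on 1 array per set and has no test. By array the list median was 9.52, 8.87 and 8.93 in the BMI1 control, shRNA 1 and shRNA 2. It was 10.005, 9.88 and 9.86 in the FAL-1 set. The BMI1 hairpin arrays thus lay below the BMI1 control, and why was not tested.

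MVK, mevalonate kinase, read 7.34, 6.97 and 7.09 in the BMI1 control, shRNA 1 and shRNA 2, and 8.36, 8.61 and 8.62 in the FAL-1 set. The groups were separated by 1.02 (difference 1.40 ± 0.13, SE; limma adjusted p = 0.0607). HMGCS1, the synthase that makes HMG-CoA, read 9.52, 9.03 and 8.93 against 10.42, 10.29 and 10.69 (1.31 ± 0.17; adjusted p = 0.11). STARD4, a sterol carrier, read 9.12, 9.39 and 8.97 against 10.16, 10.69 and 10.22. INSIG1, which retains SREBP in the endoplasmic reticulum and is itself a sterol-responsive gene, read 8.62, 6.72 and 7.80 against 9.39, 9.11 and 9.34. In INSIG1 the BMI1 hairpins were below the BMI1 control, so its knockdown difference (1.96) exceeded its control difference (0.77). SQLE, squalene epoxidase, had the same form, with 10.17, 8.75 and 8.93 against 10.97, 10.60 and 10.80. Differences in the later enzymes DHCR7 (0.98), MVD (0.68), IDI1 (0.62) and CYP51A1 (0.58) were smaller. The members that overlapped were LSS, EBP, FDPS, SC5D, TMEM97 and NPC1L1, with differences from 0.05 for TMEM97 to 0.78 for LSS.

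SREBF2, which encodes the SREBP-2 factor itself, read 9.60, 8.93 and 9.04 in the BMI1 set and 10.01, 10.20 and 10.13 in the FAL-1 set. Its promoter is shown because it was the only sterol promoter, of 19 with a sequence, that held a strict sterol regulatory element (ATCAC, any base, then CCAC, on either strand, in 250 bases before to 50 after the start). That is 5.26% of the list, 0.126% of 14240 promoters of measured genes and 0.154% of 27305 promoters. The 150 bases before the start (RefSeq, GRCh38.p14, plus strand, chr22:41832955-41833104) are printed with the element, which begins at position -134, in capitals.
SREBF2: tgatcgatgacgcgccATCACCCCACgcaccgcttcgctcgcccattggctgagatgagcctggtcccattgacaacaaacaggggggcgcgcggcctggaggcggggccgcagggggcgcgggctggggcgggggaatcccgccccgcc

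In fatty acid synthesis and desaturation, 6 of 20 genes (30.0%) were higher and 1 (5.0%) was lower, with none past the adjusted limma threshold. These counts became 5 and 2 after median centring, 4 and 2 after quantile normalization and 5 and 2 after cyclic loess. LPIN1, a phosphatidate phosphatase known as an SREBP target, read 8.97, 8.89 and 8.67 against 9.85, 9.66 and 9.93 (0.97 ± 0.11, SE; adjusted p = 0.08). SCD, stearoyl-CoA desaturase, differed by 0.54, ACSS2, which activates acetate, by 0.91, and FASN, fatty acid synthase, by 0.49. The member that went the other way was ME1, malic enzyme, which supplies NADPH and is also a known NRF2 target. It read 10.25, 10.42 and 10.63 in the BMI1 set and 9.67, 8.98 and 9.54 in the FAL-1 set (-1.03 ± 0.21, SE; adjusted p = 0.17). LIPG, endothelial lipase, was higher in the FAL-1 set by 1.13.

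The amino acid response list (ATF4 targets) had 10 of 44 genes higher in every FAL-1 array (22.7%) and none lower. That count fell to 8, 7 and 6 after median centring, quantile normalization and cyclic loess. Over all genes the higher share was 12.4% as deposited and 8.04%, 9.58% and 9.62% under those scalings. No member passed the adjusted limma threshold, and 12 had an unadjusted p under 0.05, against 13.4% of all genes. The median difference of this list was 0.34, with 0.62 between the controls and 0.13 between the knockdowns. The sterol median was larger between the knockdowns (0.73) than between the controls (0.43). DDIT3, the stress factor CHOP, read 7.34, 8.29 and 8.39 in the BMI1 control, shRNA 1 and shRNA 2, and 10.07, 9.12 and 9.16 in the FAL-1 set. The FAL-1 control was the highest array and the BMI1 control the lowest, so the control difference was 2.73 and the knockdown difference 0.80 (difference of the contrasts, limma unadjusted p = 0.000311, not past adjustment). TRIB3, a pseudokinase induced by ATF4, read 7.52, 7.22 and 7.67 against 8.82, 8.01 and 7.92. SLC1A4, a neutral amino acid transporter, differed by 1.12, and PPP1R15A, which restarts translation, by 0.85. A C/EBP-ATF response element (TGATG, any base, AA, any base, on either strand) was in 6 of 33 promoters of the list (18.2%). Its share was 2.54% of promoters of measured genes, and 1 of 7 promoters of higher members held it.

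Several large members of the same list with a large control difference had overlapping sets. SLC7A11, the cystine transporter, read 6.90, 6.51 and 8.55 in the BMI1 set and 9.53, 6.54 and 7.44 in the FAL-1 set. CHAC1, which degrades glutathione, read 8.01, 7.37 and 8.77 against 9.97, 7.92 and 7.99, and STC2, stanniocalcin 2, 7.62, 6.52 and 7.32 against 9.20, 7.26 and 7.22. In each of these genes the FAL-1 control was the highest of the 6 arrays. In SLC7A11 and CHAC1 the BMI1 shRNA 2 array came next, above both FAL-1 hairpin arrays, and in STC2 it was the BMI1 control. ASNS, asparagine synthetase, had a control difference of 1.36 and a knockdown difference of 0.46. ATF4 itself overlapped (0.28 ± 0.15, SE), as did PHGDH and PSAT1 of serine synthesis, at 0.17 and -0.19. Of 19 cytosolic aminoacyl-tRNA synthetases, 2 were higher (10.5%, against 12.4% of all genes), SARS1 by 0.24 and FARSA by 0.23, and none was lower.

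**Figure D2:**
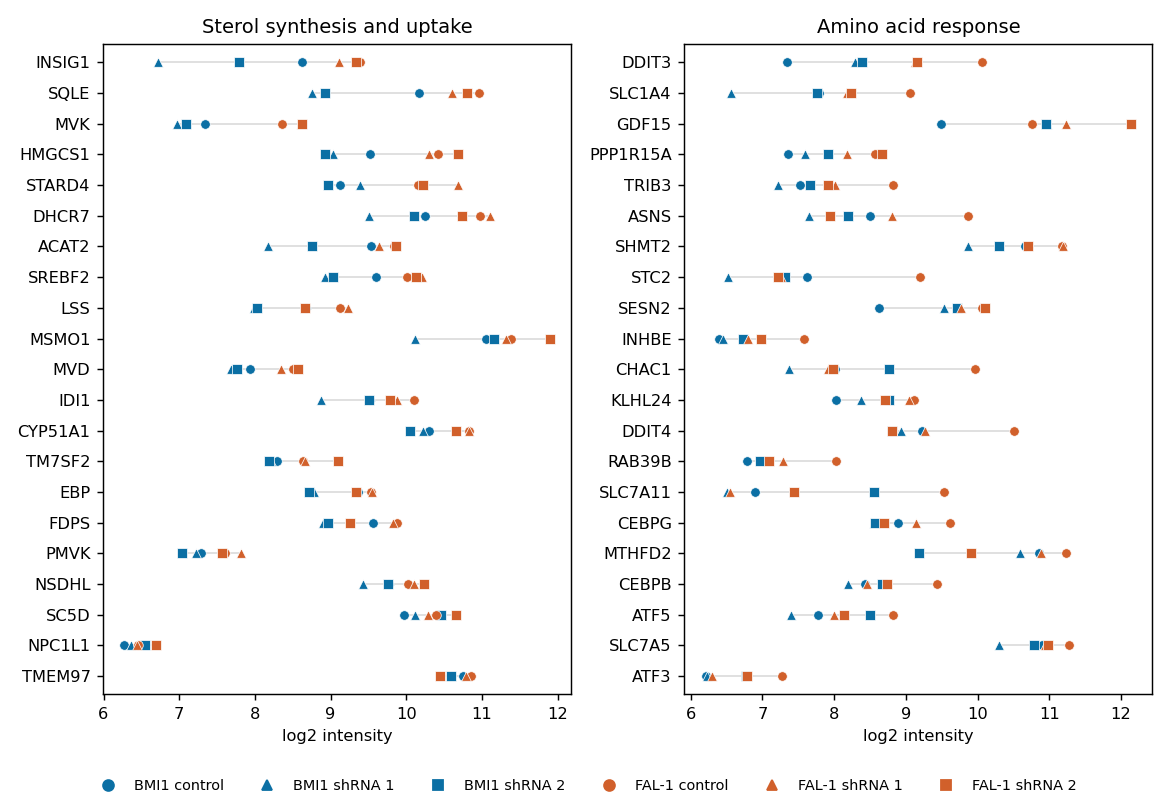
Log2 intensity of each array for the 21 sterol genes and the 21 amino acid response genes with the highest set difference; colour gives the set, shape the control or hairpin, and the grey line the range. FAL-1 arrays lie to the right of BMI1 arrays for most sterol genes, while in the amino acid panel the FAL-1 control alone lies to the right in genes such as STC2, CHAC1 and DDIT4.

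Endoplasmic reticulum chaperones and degradation genes were higher in every FAL-1 array in 7 of 32 cases (21.9%) and lower in none, with a median difference of 0.16. SELENOS, of the degradation machinery, read 7.59, 7.64 and 7.44 in the BMI1 set and 8.08, 8.14 and 8.25 in the FAL-1 set (0.60 ± 0.09, SE; limma adjusted p = 0.13). HYOU1, a chaperone, differed by 0.47, P4HB, a disulfide isomerase, by 0.33 and CRELD2, a secreted stress protein, by 0.44. After quantile normalization 3 of the 32 genes were higher in every array. An ER stress response element (CCAAT, a fixed spacer, then CCACG, on either strand) was present in 7 of 30 promoters of the list (23.3%) and in 0.0806% of all promoters. Among promoters of measured genes the share was 0.119%. The element was in 3 of the 7 promoters of higher members, those of CALR, CANX and CRELD2. The other promoters with it were of genes whose sets overlapped, HSPA5 (0.10), XBP1 (0.09), HSP90B1 (-0.02) and ERO1B (-0.08). The CRELD2 promoter, which had the widest gap of these, is shown for the 150 bases before the start (RefSeq, GRCh38.p14, plus strand, chr22:49918484-49918633), with the element in capitals as its reverse complement.
CRELD2: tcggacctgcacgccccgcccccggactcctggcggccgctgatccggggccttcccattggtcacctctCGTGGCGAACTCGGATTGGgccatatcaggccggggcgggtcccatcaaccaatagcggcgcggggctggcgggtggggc

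Lysosome and autophagy genes were higher in every FAL-1 array in 13 of 39 cases (33.3%) and lower in none. Their median difference was 0.28, with 0.19 between the controls and 0.31 between the knockdowns. None passed the adjusted limma threshold, and 11 had an unadjusted p under 0.05, against 13.4% of all genes. The count of higher members was 10 after median centring, 7 after quantile normalization and 6 after cyclic loess. NEU1, a lysosomal sialidase, read 9.61, 8.57 and 10.13 in the BMI1 set and 10.54, 10.79 and 11.36 in the FAL-1 set. MCOLN1, the lysosomal calcium channel, read 8.98, 8.71 and 9.15 against 9.54, 9.77 and 10.15 (0.87 ± 0.18, SE; adjusted p = 0.17). GAA, acid alpha-glucosidase, differed by 0.59, CTSA, a carboxypeptidase of the lysosome, by 0.58, HEXA, a hexosaminidase, by 0.52, and LAMP1, a membrane protein, by 0.48. SQSTM1, an autophagy receptor, read 9.37, 9.51 and 10.17 against 10.18, 10.56 and 11.08, with almost no space between the sets. TFEB, the factor known to drive these genes, differed by 0.16.

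The CLEAR element bound by TFEB (TCACGTGA, its own reverse complement, which contains the E-box CACGTG) was searched in the same promoter windows, a search chosen after the lysosomal values were seen. It was present in 6 of 26 lysosomal promoters (23.1%), in 1.47% of promoters of measured genes and in 1.04% of all promoters. It was in 5 of the 11 promoters of higher members with a sequence, those of MCOLN1, GAA, LAMP1, CTSA and CLN3. A match describes the letters of the window and not binding. Shown with the element in capitals are the 150 bases before the start of the 4 members whose copy lies wholly upstream, all on the plus strand of GRCh38.p14 from RefSeq, at chr19:7522474-7522623 (MCOLN1), chr17:80101431-80101580 (GAA), chr13:113297089-113297238 (LAMP1) and chr20:45891185-45891334 (CTSA).
MCOLN1: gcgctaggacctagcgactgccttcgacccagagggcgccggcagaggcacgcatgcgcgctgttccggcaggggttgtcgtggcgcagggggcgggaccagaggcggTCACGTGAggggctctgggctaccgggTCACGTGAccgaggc
GAA: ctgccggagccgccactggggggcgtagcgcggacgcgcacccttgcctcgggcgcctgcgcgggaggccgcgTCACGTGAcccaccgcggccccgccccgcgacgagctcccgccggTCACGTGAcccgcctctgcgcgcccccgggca
LAMP1: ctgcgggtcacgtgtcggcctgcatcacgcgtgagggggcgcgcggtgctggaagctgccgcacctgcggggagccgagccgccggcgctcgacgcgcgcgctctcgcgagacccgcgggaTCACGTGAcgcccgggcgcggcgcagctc
CTSA: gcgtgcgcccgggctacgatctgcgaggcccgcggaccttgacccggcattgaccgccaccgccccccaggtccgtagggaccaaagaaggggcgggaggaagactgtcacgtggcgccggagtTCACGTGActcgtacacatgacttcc

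Immediate early and serum response genes were higher in every FAL-1 array in 10 of 36 cases (27.8%) and lower in none, with a median difference of 0.32. That median was 0.13 without FAL-1 shRNA 2 and 0.21 without BMI1 shRNA 1. NR4A2, an orphan nuclear receptor induced by many stimuli, read 5.90, 6.03 and 6.66 in the BMI1 set and 7.02, 7.67 and 9.37 in the FAL-1 set. EGR1, an early growth response factor, read 9.54, 10.52 and 10.37 against 10.65, 10.66 and 11.64. In both genes the FAL-1 shRNA 2 array was far above the other arrays. MYC, in contrast, read 10.14, 10.00 and 10.19 in the FAL-1 set and 9.75, 9.22 and 9.67 in the BMI1 set, so all 3 FAL-1 arrays were close together. Of 12 glucocorticoid targets 3 (25%) were higher, with a median of 0.31 that was 0.07 without FAL-1 shRNA 2 and 0.10 without BMI1 shRNA 1. TSC22D3, the glucocorticoid-induced leucine zipper, read 7.56, 7.61 and 7.69 against 9.02, 8.38 and 8.28 (0.94 ± 0.18, SE; limma adjusted p = 0.15). PER1, a clock repressor that glucocorticoids induce, differed by 0.50 and KLF9 by 0.36, while NR1D1, a clock gene, overlapped.

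Of 32 NF-kappaB targets, cytokines and chemokines, 5 were higher (15.6%) and none was lower, against 12.4% and 6.35% of all genes. The median of 0.09 was 0.01 without FAL-1 shRNA 2 and 0.02 without BMI1 shRNA 1. LIF, a cytokine of the interleukin-6 family, read 7.11, 7.39 and 7.67 in the BMI1 set and 7.90, 8.36 and 9.23 in the FAL-1 set. NFKB2, a subunit of the factor, read 8.38, 7.93 and 8.72 against 8.85, 9.33 and 9.87. The FAL-1 shRNA 2 array was again the highest of all in both. Of 45 interferon response genes 3 were higher (6.67%) and 1 was lower (2.22%), both below the shares of all genes. IFIT3 differed by 0.57 and IFIT2 by 0.65.

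Metalloproteinases and their inhibitors were higher in 7 of 23 cases (30.4%) and lower in 2 (8.7%), against 12.4% and 6.35% of all genes. Their median was 0.18, with 0.09 without BMI1 shRNA 1 and 0.11 without FAL-1 shRNA 2. MMP1, an interstitial collagenase, read 8.56, 9.33 and 8.58 in the BMI1 set and 9.63, 10.52 and 10.94 in the FAL-1 set (1.53 ± 0.26, SE; limma adjusted p = 0.14). TIMP2, an inhibitor, read 8.73, 8.24 and 8.46 against 8.12, 7.99 and 8.22. Of 37 collagen and matrix genes 6 were higher (16.2%) and 1 was lower (2.7%), against the same shares of all genes. LAMA4, a laminin chain, read 5.85, 5.95 and 6.02 against 6.53, 6.91 and 6.86 (0.83 ± 0.08, SE; adjusted p = 0.06). FBN1, fibrillin 1, differed by 0.93 and its relative FBN2 by -0.65, each without overlap, so these microfibril genes stood apart in opposite directions. ZEB2, a mesenchymal transcription factor, was lower in every FAL-1 array (-0.70) and CDH2, N-cadherin, was higher (0.40).

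Genes of oxidative phosphorylation were higher in 19 of 69 cases (27.5%) and lower in 1 (1.45%), against 12.4% and 6.35% of all genes. Their higher count was 14, 15 and 15 after median centring, quantile normalization and cyclic loess. Their median was 0.16 (0.10 without FAL-1 shRNA 1). NDUFA1, a small subunit of complex I, read 8.89, 8.97 and 8.76 in the BMI1 set and 9.49, 9.70 and 9.46 in the FAL-1 set (0.67 ± 0.11, SE; limma adjusted p = 0.13). UQCR10, of complex III, differed by 0.44, ATP5MG, of the ATP synthase, by 0.36 and COX7A2, of cytochrome oxidase, by 0.42. The subunit in the other direction was NDUFA12, at -0.19. Cytosolic ribosomal proteins were higher in 6 of 57 cases (10.5%) and lower in 3 (5.26%), near the shares of all genes. That balance depends on the scaling, with 5 higher and 9 lower after median centring, 3 and 9 after quantile normalization and 4 and 7 after cyclic loess. Over all genes the higher share also fell, to 8.04%, 9.58% and 9.62%, and the lower share rose to 9.28%, 9.66% and 10.1%. RPL27A was the member with the widest gap, at a difference of 0.46. Glycolysis gave 1 higher of 19 (5.26%) and none lower.

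Genes of the S phase and mitosis lists did not separate the sets. Of 50 genes of G1/S and DNA replication and 66 of G2/M and mitosis, none was higher or lower in every array of a set. Their medians were below that of all genes, at -0.15 and -0.23, but above it, at 0.18 and 0.12, without FAL-1 shRNA 2. They were -0.41 and -0.59 without FAL-1 shRNA 1. Of these genes, 1 of the 50 and none of the 66 had an unadjusted limma p under 0.05, against 13.4% of all genes. HELLS, a chromatin remodeller of S phase, read 10.43, 10.18 and 9.33 in the BMI1 set and 9.64, 8.93 and 8.20 in the FAL-1 set. KIF14, a mitotic kinesin, read 10.58, 10.25 and 9.71 against 10.14, 9.69 and 8.51. In both genes the controls were the highest and shRNA 2 the lowest within each set. Of 37 p53 targets 4 were higher (10.8%) and 1 was lower (2.7%), against 12.4% and 6.35% of all genes. Their median of 0.21 was -0.04 without FAL-1 shRNA 2. CDKN1A read 9.50, 10.34 and 10.65 against 9.65, 10.17 and 11.70, with each control below its hairpins and the sets overlapping. BTG1, an antiproliferative gene, read 8.61, 8.34 and 9.06 against 9.72, 9.60 and 10.01.

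**Figure D3:**
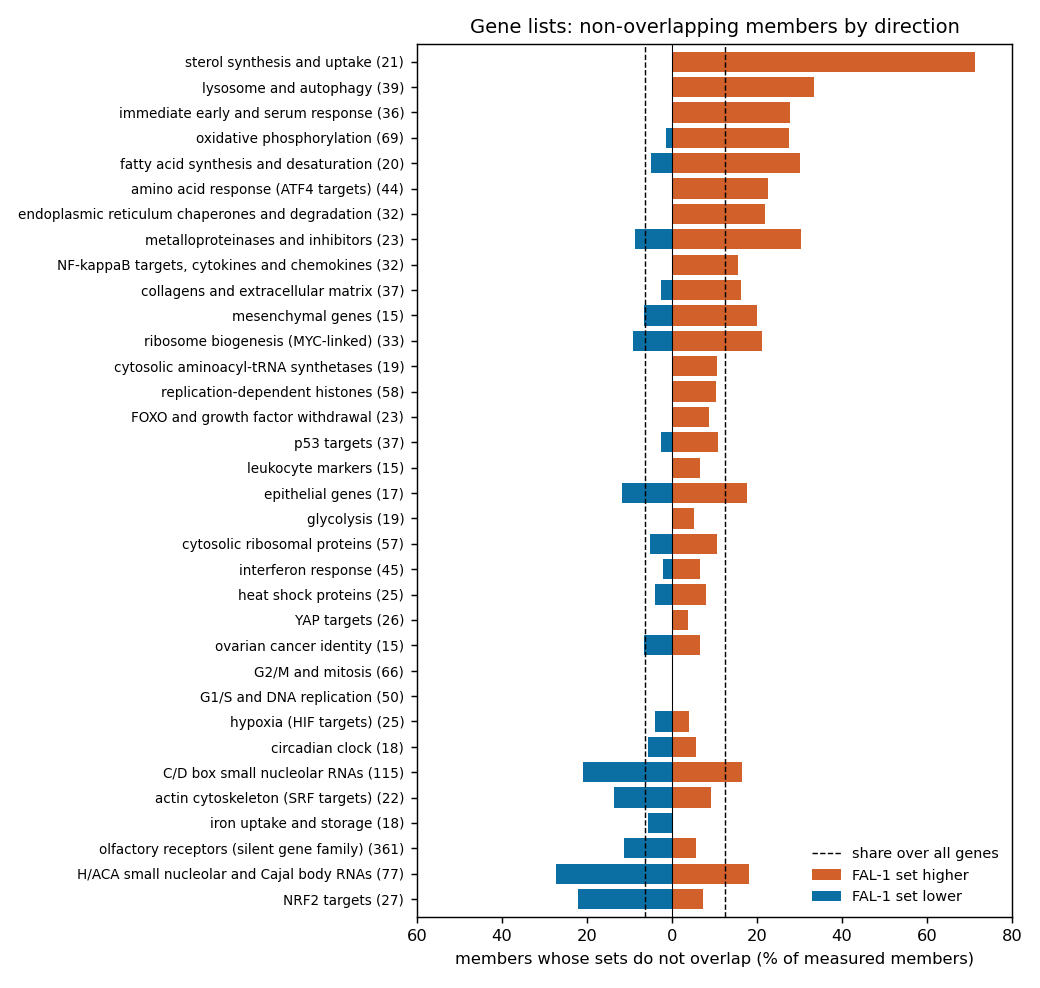
Share of measured members (%) whose sets did not overlap, for each list of at least 15 measured genes (numbers in brackets); bars to the right are higher in the FAL-1 set, bars to the left lower, and dashed lines give 12.4% and 6.35% over all genes. Sterol synthesis reaches 71.4% on the right, the cell cycle lists are empty, and NRF2 targets and small nucleolar RNAs extend to the left.

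In the other direction 14 genes passed the adjusted limma threshold. GPR52, an orphan receptor gene, read 8.34, 8.49 and 8.19 in the BMI1 control, shRNA 1 and shRNA 2, and 6.11, 6.31 and 6.34 in the FAL-1 set. The sets were 1.84 apart and the difference was -2.08 ± 0.11 (SE; limma adjusted p = 0.0118), or 4.24-fold. GPR21, another orphan receptor, read 8.39, 8.53 and 8.24 against 6.41, 6.15 and 6.51 (-2.03 ± 0.13; adjusted p = 0.0202). The remaining calls in this direction were the bitter taste receptors TAS2R14, TAS2R20 and TAS2R50, the small nucleolar RNAs SNORD56B and SNORA75, the microRNA genes MIR218-1 and MIR32, the RNAs FLJ42393 and SND1-IT1, the olfactory receptor OR6A2, GTSF1 of the piRNA pathway and the retrotransposon-derived imprinted gene PEG10. The largest fitted difference of all, -3.09 ± 0.66 for the olfactory receptor OR2J3, did not pass (adjusted p = 0.17). OR2J3 read 8.32, 7.23 and 9.70 against 5.20, 4.91 and 5.86, so its BMI1 arrays were far apart.

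Of the 16 called genes, 12 lie inside the span of a longer gene. Nested genes were 6.64% of all placed genes, 6.09% of the higher members, 14.8% of the lower members and 28 of 46 (60.9%) of the placed genes lower by a gap of at least 1.5-fold. Where strand was known, 10 of 11 of those lay on the strand of the gene around them, against 111 of 612 of all nested genes, 9 of 73 higher members and 24 of 60 lower members. The 28 genes are not independent of each other. TAS2R14, TAS2R20 and TAS2R50 among them lie within the same longer genes, and their probe sets may not separate them. Genes that are not protein-coding were 8.09% of all, 4.73% of the higher and 20.3% of the lower members. These position groups were formed after the values were seen. Among the genes around called genes, RABGAP1L around GPR52 (-0.37), RABGAP1 around GPR21 (-0.23) and LPP around FLJ42393 (-0.77 ± 0.12, SE) were lower without overlap. TMEM245 around MIR32 overlapped at -0.84 ± 0.51, while SND1 around SND1-IT1 differed by 0.06, SIPA1L1 around SNORD56B by 0.04, NCL around SNORA75 by 0.03 and SLIT2 around MIR218-1 by -0.14. Over 17 measured genes around strongly lower nested genes, 4 were lower, 1 was higher and the median was -0.12. Over all 560 measured genes around nested genes, 36 were lower, 73 were higher and the median was 0.01.

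The platform annotation does not list 12038 probe sets. Of these, 30.8% were lower in every FAL-1 array and 6.5% were higher, against 6.35% and 12.4% of named genes. The 4158 with identifiers before the first annotated probe set were lower in 41.3% of cases. Their median was 8.05, 8.11 and 7.90 in the BMI1 control, shRNA 1 and shRNA 2, and 7.43, 7.39 and 7.40 in the FAL-1 set. Every BMI1 array was therefore above every FAL-1 array. The labels and the annotation do not say what those probes target, and their part in the lower values of nested genes was not tested.

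**Figure D4:**
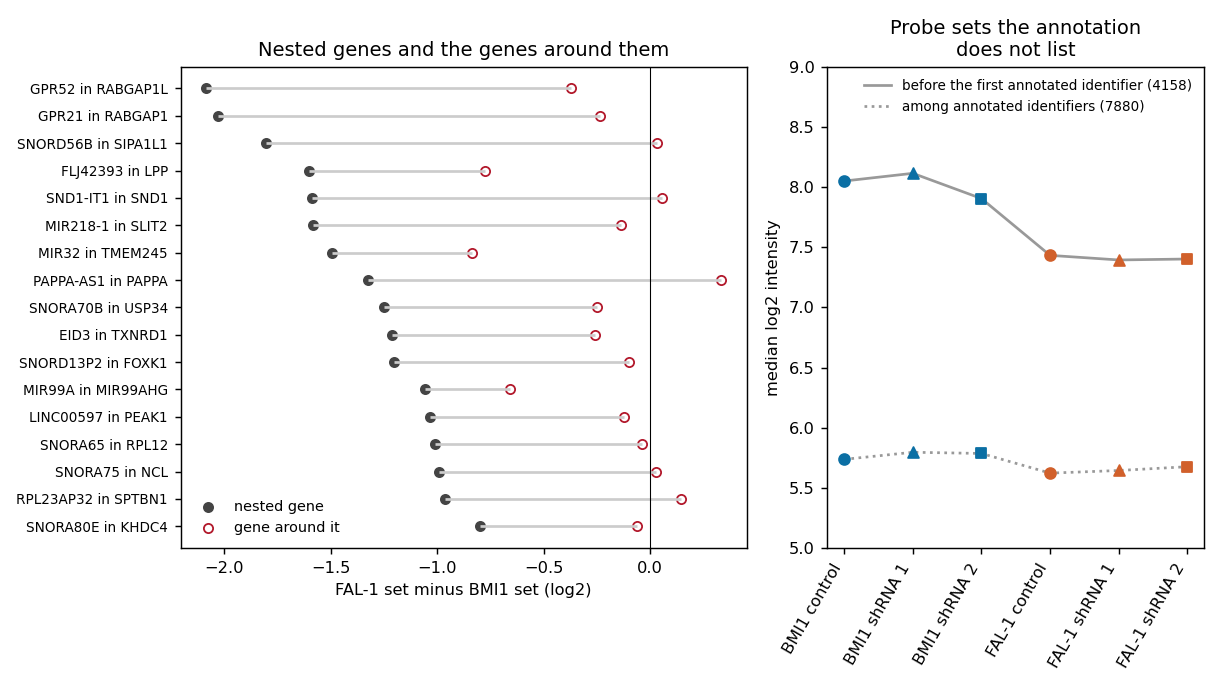
Left, set difference (FAL-1 minus BMI1, log2) of 17 nested genes (filled) and of the longer genes around them (open). Right, median log2 intensity by array of the 4158 unlisted probe sets before the first annotated identifier (solid line) and the 7880 others (dotted line); every BMI1 array is above every FAL-1 array on both lines.

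Among 173 microRNA genes, 37 were lower (21.4%) and 10 were higher (5.78%), a group chosen after values were seen. The counts became 50 and 1 after median centring, 43 and 7 after quantile normalization and 44 and 9 after cyclic loess. The list median was only 5.85, 5.78 and 5.79 in the BMI1 set and 5.68, 5.71 and 5.72 in the FAL-1 set, so many members were dim. Of all genes with a mean log2 under 6, 8.31% were lower and 8.90% higher. MIR218-1 read 8.31, 8.01 and 8.35 in the BMI1 set and 6.70, 6.59 and 6.63 in the FAL-1 set (-1.59 ± 0.11, SE; limma adjusted p = 0.0225). MIR32 read 7.66, 7.44 and 7.37 against 6.06, 6.03 and 5.90 (-1.49 ± 0.08; adjusted p = 0.012). The probe sets do not separate precursor or host transcript from the mature strand, so these values are not levels of the mature microRNA. The main strand of each called gene, from RefSeq (GRCh38.p14), is shown with its seed, bases 2 to 8, in capitals. The seeds differ.
hsa-miR-218-5p: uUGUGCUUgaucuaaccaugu
hsa-miR-32-5p: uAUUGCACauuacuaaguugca

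Of 115 C/D box RNAs, which guide ribose methylation, 19 were higher (16.5%) and 24 lower (20.9%). The higher count was 10, 8 and 11 after median centring, quantile normalization and cyclic loess, and the lower count 24, 27 and 27. Of 77 H/ACA and Cajal body RNAs, which guide pseudouridylation, 14 were higher (18.2%) and 21 lower (27.3%), with 13, 9 and 10 higher and 23, 25 and 23 lower under those scalings. SNORD104 read 9.18, 9.70 and 9.43 in the BMI1 set and 10.26, 10.62 and 10.39 in the FAL-1 set, and SNORA65 read 8.68 to 9.07 against 7.75 to 8.03. RPL12, the gene around SNORA65, differed by -0.04. Among 361 olfactory receptors, a family silent in most tissues, 41 were lower (11.4%) and 20 higher (5.54%).

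Bitter taste receptor genes, a group chosen after values were seen, were lower in 9 of 24 cases (37.5%) and higher in 1 (4.17%). Over all genes the shares were 6.35% and 12.4%, and the choice of the group favours a high lower share. A run of 8 of them, from TAS2R14 to TAS2R42, are consecutive measured genes on chromosome 12, with a median difference of -1.74. TAS2R14 read 8.59, 8.21 and 8.25 in the BMI1 set and 6.69, 6.48 and 6.25 in the FAL-1 set (-1.87 ± 0.09, SE; limma adjusted p = 0.0118), and TAS2R50 read 7.94, 7.75 and 8.04 against 6.06, 5.96 and 5.93. TAS2R43 had the lowest value of the run (-2.12; adjusted p = 0.0607). TAS2R42, at its end, differed by -0.07 and read 5.61 to 5.68 in the BMI1 set. TAS2R16 and TAS2R38, outside the run, overlapped at 0.05 and 0.07. These receptors are close relatives inside a longer transcription unit, and their probe sets may not separate them.

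Protocadherin beta genes, a cluster of adhesion genes on chromosome 5, were lower in every FAL-1 array in 14 of 18 cases (77.8%) and higher in none. This group was also chosen after values were seen, and 6.35% of all genes were lower. All 18 differences were below 0, with a median of -0.58, and the count was 14 under each other scaling. PCDHB5 read 7.34, 7.54 and 7.99 in the BMI1 set and 6.15, 6.23 and 6.39 in the FAL-1 set (-1.36 ± 0.15, SE; limma adjusted p = 0.07). PCDHB4 read 6.86, 7.31 and 7.24 against 6.06, 5.77 and 5.77. Further members differed mainly in the knockdowns. PCDHB16 read 9.37, 9.72 and 9.33 against 9.21, 9.06 and 7.99, and PCDHB14 8.20, 8.30 and 8.51 against 8.15, 8.02 and 6.85, with the FAL-1 shRNA 2 array the lowest in each. The median over the family was -0.12 between the controls, -0.78 between the knockdowns and -0.33 without FAL-1 shRNA 2. These genes are near-identical copies in part, so probes may not separate them.

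**Figure D5:**
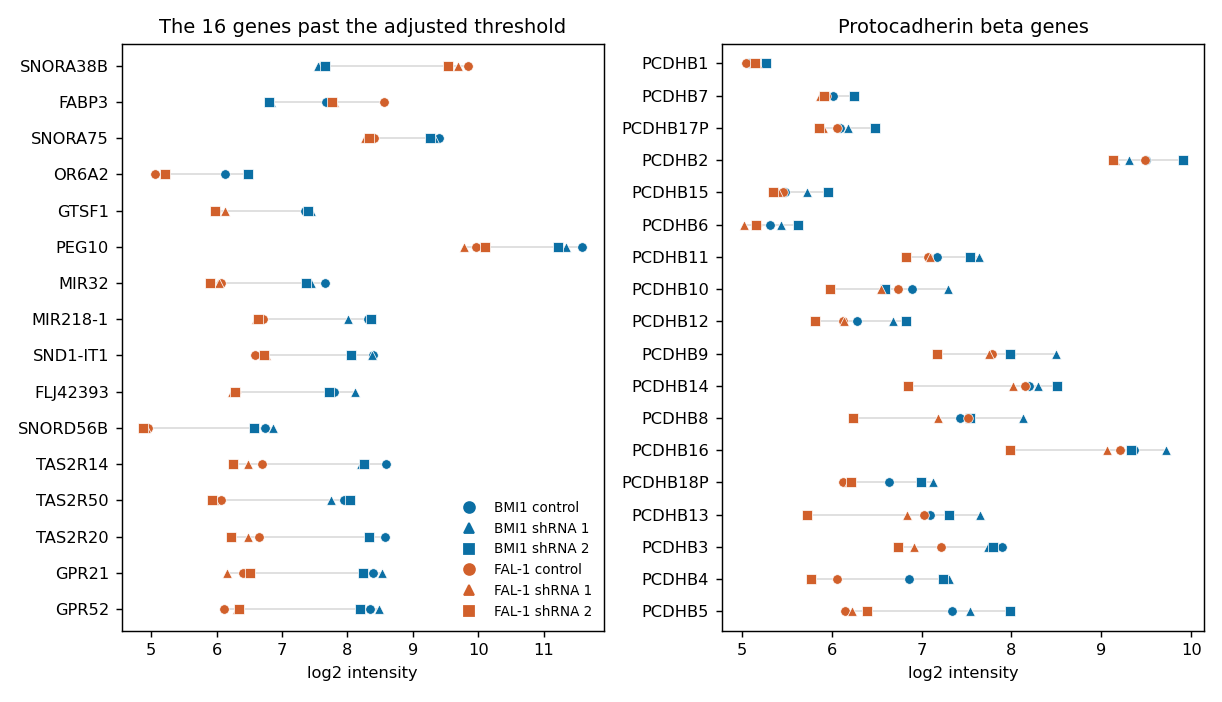
Log2 intensity of each array for the 16 genes past the adjusted limma threshold (left) and for the 18 protocadherin beta genes (right); colour gives the set and shape the control or hairpin. On the left, 2 genes have FAL-1 arrays to the right and 14 have them to the left, and on the right the FAL-1 shRNA 2 array of PCDHB16, PCDHB14, PCDHB13 and PCDHB8 lies far to the left of the others.

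Runs of other neighbouring genes were found in both directions. GOLGA2, SWI5, TRUB2, COQ4 and SLC27A4 on chromosome 9 were higher, with a median difference of 0.41, and zinc finger genes were lower. ZNF682, ZNF90, ZNF486, ZNF826P and ZNF737, zinc finger genes on chromosome 19, had a median difference of -0.46. ZNF737 read 8.59, 9.02 and 9.16 in the BMI1 set and 7.61, 7.66 and 8.47 in the FAL-1 set. The ZNF groups were chosen after values were seen. Of 237 ZNF genes of chromosome 19, 29 were lower (12.2%) and 13 higher (5.49%), against 6.35% and 12.4% of all genes. Of 257 on other chromosomes 26 were lower (10.1%) and 36 higher (14%). These counts became 30, 28 and 30 lower and 25, 24 and 29 higher after median centring, quantile normalization and cyclic loess. All genes turned likewise under those scalings, to 9.28%, 9.66% and 10.1% lower and 8.04%, 9.58% and 9.62% higher. The chromosome 19 counts became 44, 42 and 41 lower and 7, 7 and 8 higher. PEG10, TFPI2 and GNG11 were not part of such a run. PEG10 read 11.59, 11.34 and 11.22 against 9.96, 9.78 and 10.10 (-1.44 ± 0.12, SE; limma adjusted p = 0.0495). TFPI2, a protease inhibitor, differed by -1.91 ± 0.31 (adjusted p = 0.13) and GNG11, a G protein subunit, by -0.98 ± 0.10 (adjusted p = 0.06). SGCE, the imprinted partner of PEG10, overlapped at -0.14.

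NRF2 targets, which serve detoxification and redox balance, were lower in 6 of 27 cases (22.2%) and higher in 2 (7.41%). Over all genes the shares were 6.35% and 12.4%. The list median was -0.03, and 13 of the 27 differences were above 0, so the list as a whole was not lower. AKR1C1, an aldo-keto reductase, read 7.29, 7.19 and 7.37 in the BMI1 set and 6.40, 6.89 and 6.95 in the FAL-1 set. AKR1C2 and AKR1C3 were lower by similar sizes, at -0.51 and -0.46, and these copies may share probes. NQO1, a quinone reductase, read 11.81, 11.41 and 11.81 against 11.23, 11.30 and 11.20. The members higher in the FAL-1 set were NFE2L2, which encodes NRF2 (0.55), and PGD, of the pentose phosphate pathway (0.39). Metallothioneins and zinc transporters had no separated member among 14, with MT1X at 8.02, 7.40 and 9.34 against 8.65, 8.15 and 9.29.

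Markers of the line and of other cell types were read in the same way. Of 15 ovarian cancer identity genes, 1 was higher and 1 was lower, and PAX8, WT1 and MUC16 overlapped with differences from 0.06 to 0.14. WT1 reached at most 7.05, and VIM, vimentin, read 12.62 to 12.82. Levels of different probe sets are not compared here. Of 15 leukocyte markers CD68, which is also a lysosomal protein, was higher (0.91), while PTPRC and CD3E overlapped and PTPRC, the pan-leukocyte marker, read at most 5.10. Of 10 fibroblast markers DCN (0.93) and LUM (1.07), matrix proteoglycans, were higher, and COL1A1 and PDGFRB overlapped. Of 10 endothelial markers none was higher and 2 were lower (20%), TEK at -0.09 and ESAM at -0.06, and of 6 erythroid markers HBB was higher (0.77). The part of any such cells in the results was not tested.

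Some genes with a large control difference had overlapping sets. ACTG2, a smooth muscle actin, read 10.41, 10.42 and 10.48 in the BMI1 set and 8.81, 9.02 and 10.96 in the FAL-1 set. ACTA2, its relative, read 12.13, 12.40 and 12.16 against 10.95, 11.51 and 12.27. In both, the FAL-1 control was the lowest array, FAL-1 shRNA 1 also lay below the BMI1 arrays, and FAL-1 shRNA 2 lay within or above them. TXNIP, a glucose-responsive arrestin, read 8.11, 8.86 and 8.55 against 9.84, 8.85 and 9.34, with a gap of -0.01. PTGS2, cyclooxygenase 2, read 8.21, 8.04 and 10.25 against 9.58, 9.67 and 9.49, where the BMI1 shRNA 2 array alone exceeded the FAL-1 set. With a single control per set these control differences (past 1.5-fold for 303 genes higher, 1.65%, and 166 lower, 0.901%) have no replicate check.

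At the edge of the rule the gaps were smaller than any array spread. MIR451A, just inside on the higher side, read 4.54 to 4.66 in the BMI1 set and 4.66 to 4.67 in the FAL-1 set, and SETBP1, just outside, 6.49 to 6.66 and 6.66 to 6.82. On the lower side VTRNA1-1 was just inside, at 5.08 to 5.18 and 4.90 to 5.08, and SERINC4 just outside, at 5.96 to 6.02 and 5.89 to 5.96. Where a separated gene had further probe sets, 92 of 140 (higher genes) and 82 of 128 (lower genes) separated the same way.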

How the data were processed

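Total RNA was hybridised to 1-colour Affymetrix gene arrays, per the labels' protocols. The authors deposited a table of 33252 probe sets by 6 arrays, on a log2 scale as judged from its values. RMA is named in the submitters' processing notes, with no version or settings. The platform annotation gave 1 symbol for 19460 probe sets, more than 1 for 1754, and no entry for 12038. Probe sets with several symbols were not used, except the BMI1 probe set shared with a readthrough. Each of 18418 genes took its brightest probe set. No normalization was added for the values reported. RMA can pull array-wide differences together, and the number of arrays limits precision.

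The sets were compared with limma 3.58.1 in R 4.3.3 (two-sided, knockdown as a second term, Benjamini-Hochberg over all genes), tested on simulated data. The alternatives were median centring, quantile and cyclic loess scaling, the mean of probe sets, filters on mean log2, other models and leaving out arrays. No set test was used. Motif searches for the NRF2, immediate early, clock, hypoxia and metallothionein lists were also run and are not given. Named genes were the called ones and those with the widest gaps, the widest gaps per list, large control differences, edge cases and fixed genes. Others were chosen after their values were seen. Members and lists were chosen with earlier results of these data known.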

Additional observations from a re-analysis of the deposited data

Results flagged for a closer look

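NR1D1, a clock gene, was looked at again because its set difference had opposite signs, at -0.42 between the controls and 0.16 between the knockdowns (0.14 and 0.17 in the hairpin pairs; limma interaction unadjusted p = 0.0278, not past adjustment). The median of the heat shock proteins was -0.0119 between the controls and 0.12 between the knockdowns, with 0.09 and 0.16 in the hairpin pairs. The median of the cytosolic ribosomal proteins was 0.10 between the controls and -0.07 between the knockdowns, with -0.11 and -0.003 in the hairpin pairs. For these lists the difference between controls and knockdowns was not tested.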

How the results depend on the processing

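The count of 16 genes past the adjusted limma threshold became 42 without the knockdown term, 61 with a variance trend, 39 and 26 with a mean log2 of at least 6 and 7, 69 at a threshold of 0.10 and 0 at 0.01, and 0 with 4 group means. With the replicate number as a block it was 10, 9 of them shared. The labels do not say that same-numbered arrays share a source. Hairpin 2 minus hairpin 1 differences of the sets correlated at 0.275 across 18418 genes, which are not independent, so whether the numbers pair the arrays was not settled. Leaving out 1 array gave 0 to 3, with 3 calls only without FAL-1 shRNA replicate 2. All 16 kept their direction and an unadjusted p under 0.05 in every setting in which they were tested. With an array left out their direction could not change, because their sets did not overlap. The count of separated genes higher in the FAL-1 set was 1481 after median centring. The lower count was 1780 after quantile normalization, 1855 after cyclic loess and 609 with a mean log2 of at least 7. Leaving out 1 array gave 3008 to 3783 higher and 1529 to 2508 lower, in part because fewer arrays must agree. SLC7A11 (-0.54), CHAC1 (-0.11) and NR1D1 (0.16) changed sign without either control, that is in the knockdown arrays only. Over all arrays left out in turn, SLC7A11 ranged from -0.54 to 1.40, CHAC1 from -0.11 to 1.17, NR1D1 from -0.0964 to 0.16, MT1X from -0.0864 (without BMI1 shRNA replicate 1) to 1.02 and CDKN1A from -0.12 (without FAL-1 shRNA replicate 2) to 0.76. The cause was not tested. With 3 arrays a set, small differences of dim genes cannot be resolved.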

Other observations

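Of 58 replication-dependent histone genes 6 were higher in every FAL-1 array (10.3%) and none was lower, against 12.4% and 6.35% of all genes. H2BC12 read 11.41, 11.57 and 11.90 in the BMI1 control, shRNA 1 and shRNA 2, and 12.01, 12.36 and 12.54 in the FAL-1 set. Of 25 hypoxia genes, P4HA1, a collagen prolyl hydroxylase, was lower (-0.56) and ANKRD37 was higher (0.41). Of 33 ribosome biogenesis genes 7 were higher (21.2%) and 3 lower (9.09%), with RRS1 differing by 0.55, and after quantile normalization 4 were higher and 4 lower. Of 22 actin cytoskeleton genes 2 were higher (9.09%) and 3 lower (13.6%), with LMOD1 at 0.69 and TGFB1I1 at -0.34. CLOCK was lower in every FAL-1 array (-0.27), while PER1 was higher. KRT19, a keratin, read 6.28, 6.21 and 6.53 against 6.72, 6.73 and 8.57, so FAL-1 shRNA 2 stood far above the rest. None of the genes named here passed the adjusted limma threshold.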
